A study of Homo sapiens with 80 samples.

Results

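RNA abundance was compared between 8 wells of WTC11 cells on day 2 of cardiac differentiation, 4 from a high purity and 4 from a low purity differentiation, chosen by those labels from the 80 samples of the series. WTC11 is a human induced pluripotent stem cell line. All 8 wells had received CHIR99021, a small molecule that activates canonical WNT signalling by inhibiting the kinase GSK3, on day 0 in medium with B27 supplement lacking insulin, and were sampled 48 h later. Per the labels the CHIR99021 dose lay between 6 and 12 µM and was tuned for each line. The protocol also included the compound IWP2 at 5 µM. Its part in the day 4 values given below was not tested. The high purity wells were at passage 52 and the low purity wells at passage 69. The names high and low refer to the proportion of troponin T positive cardiomyocytes that flow cytometry found after differentiation had ended, so the day 2 wells were classed by an outcome read later. Each class stands for 1 passage, sampled as separate culture wells on Matrigel. Purity, passage and differentiation run cannot be told apart, and every p-value below measures only the spread between wells. The comparison asks which transcripts already differed 48 h after WNT activation, and it is set beside wells of the same 2 classes on days 0 and 4 (4 wells per class and day) and beside single day 2 or 3 libraries of 3 lines from a separate RNA-only experiment.

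WNT activation drives pluripotent cells into a state like the primitive streak of the gastrulating embryo, the epithelium from which mesoderm and endoderm leave by an epithelial to mesenchymal transition. Cells in this state, called mesendoderm, express the T-box factors TBXT and EOMES and the homeobox factor MIXL1, while pluripotency factors decline. NODAL, WNT, FGF and BMP ligands made by the cells themselves then set which streak derivative they become, and cardiac mesoderm passes through a stage marked by MESP1.

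Streak genes were expressed in all 8 wells. TBXT averaged 758 ± 60.0 TPM (transcript level scaled for gene length and library size; mean ± SD, n = 4 wells) in the high purity class and 588 ± 10.1 TPM in the low, and MIXL1 averaged 682 ± 73.7 and 644 ± 39.2 TPM. On day 0 both genes had been below 2 TPM on average in each class. TNNT2, which encodes cardiac troponin T, was at 0.746 ± 0.7 and 0.870 ± 0.704 TPM on day 2. POU5F1, the central pluripotency factor, is split in the deposited table between the plain symbol and 6 numbered copies and is not analysed here. Reads recovered from the TPM, over the genes whose length could be solved, ranged from 9964769 to 14718686 in high and from 6841508 to 7732058 in low purity wells, and the difference in depth between the classes gave p = 0.0286 in a two-sided exact permutation test, the smallest value that 4 against 4 wells allow. Depth and class therefore move together, and so did 4 other measures. Protein-coding genes held 71.0% ± 1.20 of the TPM in high and 64.1% ± 1.21 in low purity wells, and RNR2, a mitochondrial ribosomal RNA, held 14.6% ± 0.999 and 20.3% ± 0.748 (exact permutation p = 0.0286 for each). RN7SK, a small nuclear RNA, ran the other way from RNR2, at 7.46% ± 0.207 in high purity wells and 6.53% ± 0.286 in the low, and genes at 1 TPM or more numbered 17570 ± 117 and 18580 ± 119, more in the shallower class (exact permutation p = 0.0286 for each). Their part in the gene-level differences was not tested. Pearson's r of log2(TPM + 1) across genes was 0.957 to 0.969 for the 12 pairs of wells within a class and 0.916 to 0.939 for the 16 pairs across classes.

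Of 19199 genes with at least 1 TPM in 3 or more of the 8 wells, 1339 (6.97%) were called different, by a Benjamini-Hochberg adjusted p under 0.05 in limma together with a log2 fold change of 1 or more in size. Fold changes are high minus low on the scale of log2(scaled TPM + 1), which understates the change of low genes. Of these, 529 (2.76% of the genes tested) were higher and 810 (4.22%) were lower in high purity wells. The composition of the 2 sets differed: 417 of the 529 higher genes are protein coding in RefSeq against 217 of the 810 lower genes, of which 344 are lncRNA genes. Of all 19199 genes tested, 13438 are protein coding, a count that leaves out numbered copies, which the 417 and 217 may include. Few reads stood behind many of the lower calls, since 195 of the 810 had at most 10 reads in every well, against 37 of the 529. The shares of lncRNA genes and of genes with few reads among all genes tested are not given here. When only protein-coding TPM was scaled and tested, 416 genes were higher and 344 lower. With wells compared directly, the 4 of one class lay wholly above the 4 of the other for 8241 genes (42.9%), so a lack of overlap between the classes is common here and is read below only beside the fold change. The median log2 fold change was -0.02 over all genes tested and 0.06 over the 13438 protein-coding genes.

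**Figure D1:**
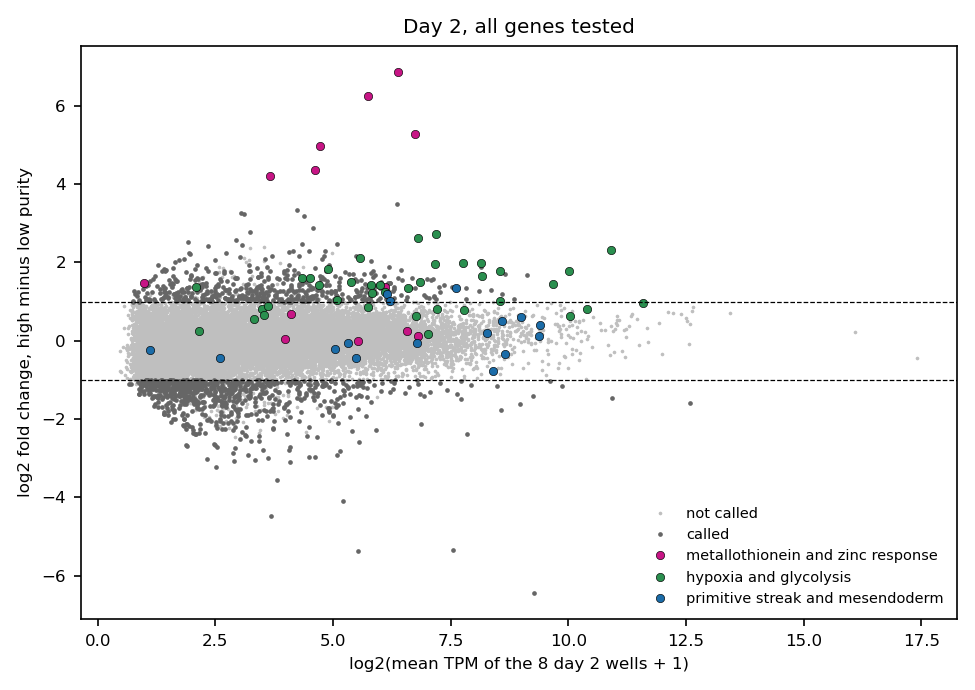
Each point is 1 of the 19199 genes tested on day 2, by the log2 of its mean TPM over the 8 wells plus 1 (x axis) and its log2 fold change, high minus low purity (y axis); dashed lines mark the fold threshold of 1. Metallothionein genes lie highest, up to 6.88, most hypoxia and glycolysis genes lie above 1, and streak genes lie mostly between the lines.

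Metallothionein genes had the 6 largest positive fold changes of all genes tested on day 2. Metallothioneins are small cysteine-rich proteins that bind zinc and copper, and their genes are induced by zinc through the metal-sensing factor MTF1. Of the 18 genes of the metallothionein and zinc response list, 13 passed the filter and 8 were higher in high purity wells, with none lower (6.97% of all genes were called). Over the processing alternatives 7 or 8 were called. MT1E, MT1F, MT1G, MT1H and MT1M reached 1 TPM in at most 1 low purity well, so these 5 entered the test only through the class where they were high, and the count and median are a description of the genes kept. The members' median log2 fold change was 1.47, or 1.37 with MT1M, which had 0 reads in the low purity wells, set at its bound. The list's summed level ran from 893 to 1085 TPM in high purity and from 304 to 322 TPM in low purity wells.

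MT1X had 171, 237, 201 and 223 TPM in high purity wells 1 to 4 and 4.05, 8.13, 5.62 and 1.86 TPM in low purity wells 1 to 4. The log2 fold change came to 5.28 ± 0.32 (± SE), with a limma adjusted p of 1.37e-05. The lowest high purity well, at 171 TPM, was far above the highest low purity well, at 8.13 TPM. MT1H, the gene with the largest positive fold change, had 142, 191, 154 and 169.8 TPM against 0, 1.03, 0.954 and 0 TPM. These values came from 1115 reads over the 4 high and 2 reads over the 4 low purity wells, a depth-adjusted ratio of 323 with a 95% exact binomial interval of 89.3 to 2670 that covers counting error only. MT1G stood on 730 and 2 reads (ratio 212, interval 58.4 to 1750) and MT1F on 195 and 2 reads (ratio 56.5, interval 15.4 to 470). In the low purity wells these 3 genes were thus at or near the limit of detection. MT2A, the most broadly expressed human metallothionein gene, had 38.2, 47.3, 50.7 and 44.8 TPM against 2.04, 2.05, 1.89 and 0 TPM. MT1E had 44.9, 60.9, 48.02 and 47.6 TPM against 0.952, 0.956, 0.882 and 0 TPM. The limma log2 fold changes were 4.36 ± 0.34 and 4.98 ± 0.22, and no well of either class overlapped the other. MT1E was also below 1 TPM in every low purity well, and both fold changes depend in part on the 1 added to each TPM value. Metallothionein genes are close paralogs, and the options of the authors' read counting are not given in the sources used here, so reads may be split between members. The sum of the 7 expressed genes (MT1E, MT1F, MT1G, MT1H, MT1M, MT1X and MT2A) takes in such splits, and it was 513, 674, 581 and 623 TPM in high purity wells and 8.73, 13.2, 10.3 and 1.86 TPM in the low.

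The zinc exporter gene SLC30A1, another MTF1 target, was higher too, with 93.8, 108, 104 and 86.9 TPM in high purity and 37.3, 36.4, 41.6 and 37.7 TPM in low purity wells and a fold change of 1.37 ± 0.07 (limma adjusted p = 8.2e-06). The remaining zinc genes were not called. MTF1 itself averaged 14.8 ± 1.80 and 14.5 ± 1.18 TPM, with a log2 fold change of 0.06. The zinc importers SLC39A6 and SLC39A10 had log2 fold changes of 0.25 and 0.11. HMOX1, the haem oxygenase gene that responds to oxidants and heavy metals, had 0.69 ± 0.09, short of the fold threshold.

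The promoters of the called metallothionein genes whose sequence was at hand are shown because 7 genes of this family were called together. They are the 250 bases before the RefSeq start on GRCh38, 5′ to 3′ on the gene's strand: MT1H at chr16:56669564-56669813, MT1X at chr16:56682220-56682469 and MT2A at chr16:56608334-56608583, all on the plus strand. Capitals mark matches to the core of the metal response element, the DNA motif bound by MTF1, searched as TGCACNC and TGCGCNC on both strands.
MT1H: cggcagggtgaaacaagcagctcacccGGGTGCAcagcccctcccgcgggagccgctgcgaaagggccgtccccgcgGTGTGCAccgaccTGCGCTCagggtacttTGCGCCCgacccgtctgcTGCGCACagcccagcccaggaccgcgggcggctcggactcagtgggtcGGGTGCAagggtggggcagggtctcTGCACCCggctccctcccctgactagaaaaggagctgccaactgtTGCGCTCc
MT1X: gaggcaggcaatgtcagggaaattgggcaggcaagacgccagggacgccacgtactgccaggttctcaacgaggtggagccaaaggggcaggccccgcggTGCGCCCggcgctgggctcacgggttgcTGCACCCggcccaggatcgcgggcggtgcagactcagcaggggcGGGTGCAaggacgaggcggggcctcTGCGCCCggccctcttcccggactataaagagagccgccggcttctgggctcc
MT2A: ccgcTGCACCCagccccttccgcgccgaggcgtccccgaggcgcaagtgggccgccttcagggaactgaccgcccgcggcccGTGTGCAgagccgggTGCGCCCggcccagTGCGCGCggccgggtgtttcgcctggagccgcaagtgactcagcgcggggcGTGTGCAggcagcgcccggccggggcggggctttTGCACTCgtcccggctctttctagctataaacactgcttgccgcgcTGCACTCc
The letters matched at 8 places in MT1H, 4 in MT1X and 7 in MT2A. Of the 34943 distinct RefSeq promoters of the same length, 24.8% held any match and 0.209% held 4 or more. Promoters of 10 of the 18 list genes were found in the table, of which 8 held a match, among them SLC30A1 with 1. Of the 10, 6 held 3 or more matches, against 1.04% of all promoters. MT1B, MT4 and SLC30A2, which were not called and are not shown, held 3 each. The list was chosen as genes of the metal response, many of them paralogs, so an excess of these letters was likely beforehand. A match is a description of the letters and not of a bound site.

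Before CHIR99021 part of this order was already present, at a smaller size. On day 0, 7 of the 13 tested genes had all 4 high above all 4 low purity wells, against 21.7% of all genes tested, and 1 had the reverse order. MT1G averaged 25.5 ± 5.42 and 9.06 ± 1.99 TPM on day 0 and MT1H 44.3 ± 11.1 and 20.1 ± 4.88 TPM, with no overlap of wells. MT1X averaged 84.6 ± 7.26 TPM in high purity and 47.6 ± 4.84 TPM in low purity wells, and MT2A, whose wells overlapped, 22.2 ± 5.34 and 20.99 ± 5.17 TPM. Mean MT1X on day 2 was 208 TPM in the high and 4.92 TPM in the low purity class, so the class means had moved apart in opposite directions. The difference between the classes in this change was tested directly across 20685 genes in the 16 wells of both days, where 838 genes (4.05%) were called. For MT1X it was 4.54 ± 0.36 on the log2 scale (limma adjusted p = 1.18e-06) and for MT2A 4.36 ± 0.44 (adjusted p = 8.75e-06). All 8 list members higher on day 2 were called in this test as well, which contains the same day 2 wells and so is not separate from the day 2 calls. By day 4 the level was low in both classes, with MT1X at 3.77 ± 1.07 TPM in high and at 0 in all 4 low purity wells.

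**Figure D2:**
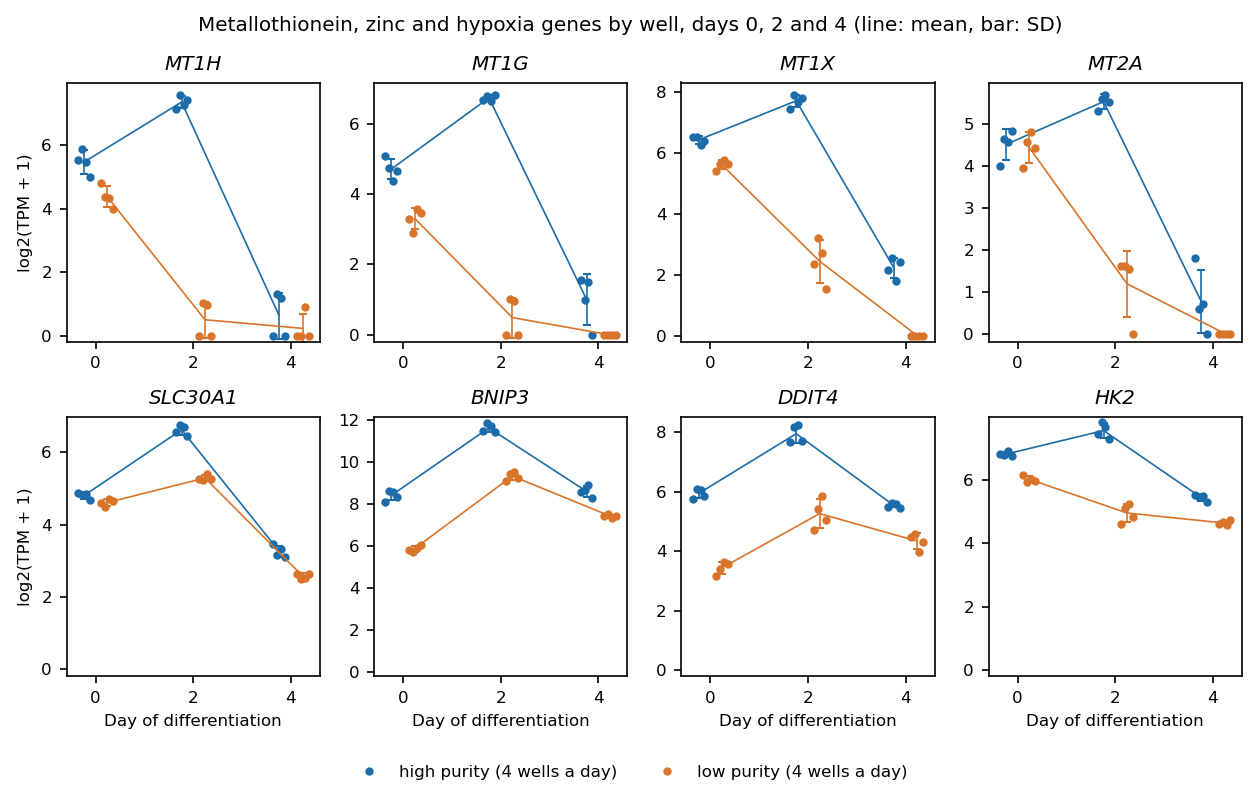
Expression as log2(TPM + 1) of 4 metallothionein genes, the zinc exporter gene SLC30A1 and 3 hypoxia-related genes in single wells (points) on days 0, 2 and 4, with the mean (line) and SD (bar) of 4 wells per class. MT1X goes from a mean of 84.6 to 208 TPM in high and from 47.6 to 4.92 TPM in low purity means between days 0 and 2, while the gap in BNIP3 is already present on day 0.

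Genes of the hypoxia response and of glycolysis gave more calls than any other list tested, all in 1 direction. Cells short of oxygen stabilise HIF1 and HIF2, factors that raise glucose uptake, glycolytic enzymes and regulators of mitophagy and growth. Of 40 genes in this list 38 passed the filter, and 25 were higher in high purity wells with none lower, against 6.97% of all genes called. All 38 had a positive log2 fold change, and their median was 1.41, against -0.02 over all genes. Over the processing alternatives the number called higher ran from 22 to 26. The list's summed level was 16410 to 19970 TPM in high purity and 6980 to 7625 TPM in low purity wells.

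BNIP3, a mitophagy receptor, had 2900, 3695, 3408 and 2792 TPM in high purity and 553, 705, 739.6 and 616 TPM in low purity wells, which gave 2.32 ± 0.12 (limma adjusted p = 8.2e-06). The lowest high purity well had 2792 TPM and the highest low purity well 739.6 TPM. DDIT4, an inhibitor of mTORC1, had 202, 292, 302 and 209 TPM against 25.3, 42.1, 57.3 and 32.5 TPM (2.72 ± 0.25). HK2, which encodes the inducible hexokinase of the first glycolytic step, had 173, 227, 203 and 158 TPM against 23.7, 34.0, 37.1 and 27.8 TPM (2.64 ± 0.16). The peptide hormone gene ADM had 62.9, 82.9, 86.1 and 68.5 TPM against 13.4, 18.4, 27.7 and 11.8 TPM (2.11 ± 0.24). In each of these genes the 2 classes were fully separate, and high purity wells 2 and 3 were above wells 1 and 4. The glucose transporter genes SLC2A1 and SLC2A3 differed by 1.98 and 1.78 and the lactate dehydrogenase gene LDHA by 1.45 on the log2 scale. VEGFA, the endothelial growth factor, averaged 226 ± 62.3 TPM in high purity and 58.4 ± 12.1 TPM in low purity wells. Core glycolytic enzymes shifted less, with 0.97 for GAPDH, 0.80 for ENO1 and 0.63 for PKM, none of which reached the fold threshold. HIF1A itself differed by 0.16, and EPAS1, the gene of HIF2, was below the filter. CA9, a carbonic anhydrase often used as a hypoxia marker, was below the filter as well, at 0.502 ± 0.378 and 0.868 ± 0.729 TPM.

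STC1 and STC2, secreted stanniocalcin glycoproteins outside this list, were among the 12 largest protein-coding rises. STC1 had 129, 174, 167 and 123 TPM against 5.18, 23.9, 20.8 and 8.84 TPM (3.48 ± 0.42) and STC2 53.6, 62.9, 58.9 and 48.6 TPM against 7.42, 10.8, 12.1 and 8.37 TPM (2.46 ± 0.15). PPP1R1B, an inhibitor of protein phosphatase 1, had 31.4, 51.9, 48.8 and 31.0 TPM against 4.40, 5.70, 6.96 and 2.53 TPM (2.88 ± 0.28). No well overlapped the other class in any of them.

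The promoters of BNIP3 and DDIT4 are shown as examples of genes whose difference was about as large before CHIR99021 as after it. They cover chr10:131981924-131982173 on the minus strand and chr10:72273674-72273923 on the plus strand of GRCh38 (RefSeq), 5′ to 3′ on the gene's strand. Capitals mark ACGTG and GCGTG, the core letters of the hypoxia response element, on both strands.
BNIP3: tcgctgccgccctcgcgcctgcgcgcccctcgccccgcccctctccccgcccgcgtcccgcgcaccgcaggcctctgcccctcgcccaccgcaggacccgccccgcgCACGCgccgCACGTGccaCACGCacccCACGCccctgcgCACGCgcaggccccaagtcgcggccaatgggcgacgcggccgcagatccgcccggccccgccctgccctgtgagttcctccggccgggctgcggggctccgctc
DDIT4: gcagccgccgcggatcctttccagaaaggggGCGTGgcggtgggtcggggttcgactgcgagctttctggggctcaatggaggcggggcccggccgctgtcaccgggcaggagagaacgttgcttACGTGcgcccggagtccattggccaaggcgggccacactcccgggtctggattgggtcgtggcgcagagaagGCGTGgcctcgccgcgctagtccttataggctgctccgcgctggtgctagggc
BNIP3 held 6 matches in 5 separate places, since ACGTG read on both strands overlaps itself there, and DDIT4 held 3. Of all 34943 promoters, 43.2% held any match and 5.53% held 3 or more separate ones. Among the 36 list genes with a promoter in the table, 26 (72.2%) held a match and 7 (19.4%) held 3 or more, and SLC2A1 was among those with none in this window. The prolyl hydroxylase gene EGLN1, whose difference was also of similar size on both days, held 1 match and is not shown. This list was likewise chosen by pathway, and a match here too describes the letters and not a bound site.

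Much of the hypoxia difference was in place on day 0. Of the 38 genes, 34 had all 4 high above all 4 low purity wells on day 0, against 21.7% of all genes. The difference in mean log2(TPM + 1) on day 0 was 2.53 for BNIP3, 2.5 for DDIT4 and 1.49 for EGLN1, an oxygen-sensing prolyl hydroxylase, and on day 2 it was 2.29, 2.68 and 1.40. For HK2 it went from 0.79 to 2.60 and for VEGFA from 0.59 to 1.92. The change from day 0 differed between the classes for 7 of the 38 genes, all larger in high purity wells, where 4.05% of all genes were called. HK2 (1.92 ± 0.18, limma adjusted p = 4.64e-06) was among them and BNIP3 (-0.13 ± 0.18, limma adjusted p = 0.656) was not. On day 4, 21 of the 38 had all high above all low purity wells and 6 had the reverse order (19.1% and 17.3% of all genes).

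**Figure D3:**
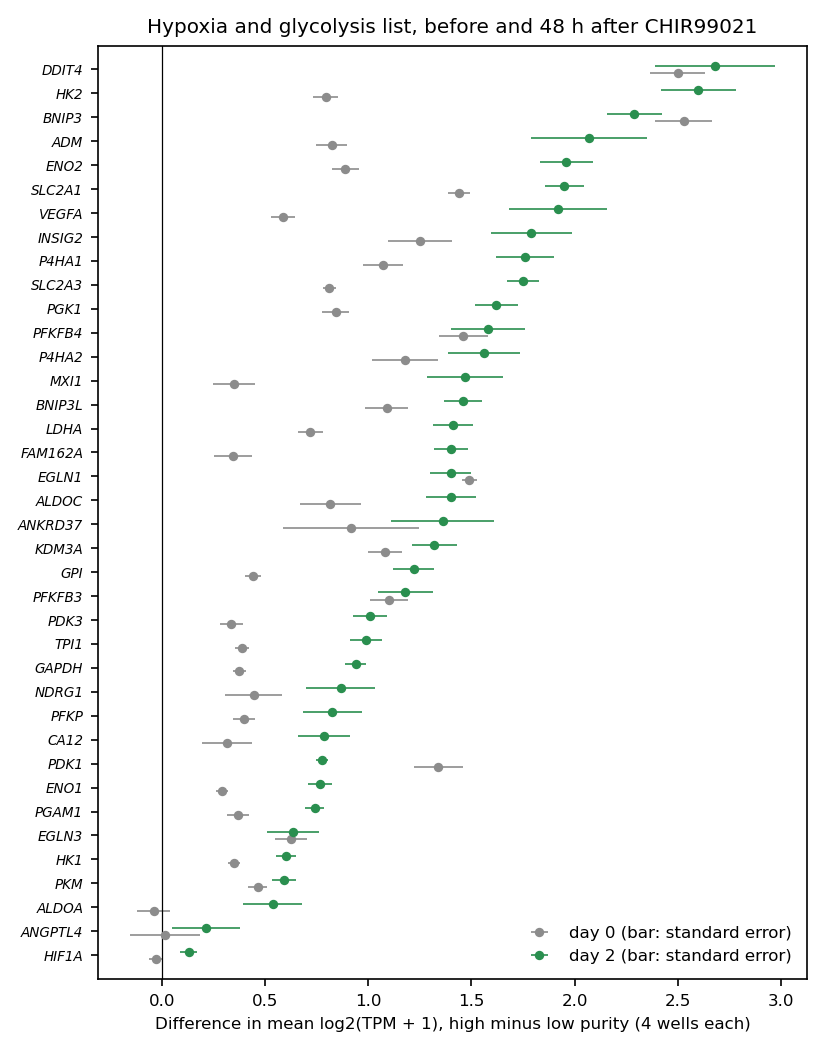
Difference in mean log2(TPM + 1) between 4 high and 4 low purity wells (x axis; bars are standard errors) for the 38 tested genes of the hypoxia and glycolysis list, on day 0 (grey) and day 2 (green). All 38 differences are above 0 on day 2; BNIP3, DDIT4 and EGLN1 are as far to the right on day 0, while HK2 and VEGFA move from 0.79 and 0.59 to 2.60 and 1.92.

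Some pluripotency transcripts were higher in the high purity wells. Of the 17 list genes 14 passed the filter, and NANOG, SOX2 and the long non-coding RNA gene ESRG were higher, with none lower, where 2.76% of all genes were called higher. NANOG, a homeobox factor of the pluripotency network, had 44.5, 48.8, 44.4 and 46.8 TPM in high purity and 6.15, 9.18, 12.0 and 8.55 TPM in low purity wells, which gave 2.31 ± 0.16 on the log2 scale (limma adjusted p = 2.18e-05). SOX2, its high mobility group partner, had 79.8, 64.5, 64.7 and 75.3 TPM against 9.28, 21.1, 20.2 and 13.5 TPM (2.18 ± 0.24). The classes did not overlap in either gene. On day 0 they had been closer, with NANOG at 102 ± 4.38 and 92.5 ± 1.31 TPM and SOX2 at 282 ± 6.21 and 296 ± 11.7 TPM, above the day 2 values of both classes. The change from day 0 differed between the classes by 2.24 ± 0.18 for NANOG (limma adjusted p = 1.06e-06) and by 2.33 ± 0.26 for SOX2 (limma adjusted p = 1.86e-05). Other members stayed under the fold threshold, among them DPPA4 (0.98), LIN28A (0.92) and the de novo methyltransferase DNMT3B (0.52). ZFP42 and LIN28B had negative values, -0.60 and -0.18. The median of the 14 was 0.57. POU3F1, a POU factor of the epiblast and neural plate, and TFAP2C, an AP-2 factor of naive pluripotency and surface ectoderm, were higher as well. POU3F1 had 11.3, 14.0, 12.6 and 14.3 TPM against 0.977, 1.96, 2.59 and 1.16 TPM (2.45 ± 0.20), and TFAP2C had 24.7, 31.0, 31.0 and 19.6 TPM against 3.71, 5.31, 5.56 and 4.73 TPM (2.26 ± 0.17).

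Genes of the epithelial to mesenchymal transition went both ways. Of 25 tested genes of that list, 6 were higher (CDH1, ESRP1, CLDN3, CLDN4, CRB3 and OCLN, all of epithelial junctions, polarity or splicing) and 3 were lower (CDH11, TWIST1 and SNAI2, of mesenchyme), against 2.76% and 4.22% of all genes. CDH1, the E-cadherin gene, had 336, 454, 419.5 and 328 TPM in high purity and 154, 163, 176 and 147 TPM in low purity wells (1.28 ± 0.11, limma adjusted p = 5.49e-05). ESRP1, an epithelial splicing regulator, had 145, 164, 157 and 141 TPM against 47.4, 49.1, 53.9 and 50.6 TPM (1.61 ± 0.06), and the tight-junction gene CLDN3 had 37.9, 38.6, 36.6 and 30.6 TPM against 3.21, 6.77, 9.51 and 9.15 TPM (2.29 ± 0.26). All high purity wells lay above all low purity wells. CDH11, a mesenchymal cadherin, was in the opposite order, at 90.0, 60.7, 56.6 and 94.4 TPM and 197, 186, 169.8 and 206 TPM (-1.32 ± 0.17). SNAI2, a repressor of CDH1, averaged 19.6 ± 6.64 and 40.3 ± 3.99 TPM (-1.04 ± 0.22), and its call was lost without high purity well 3 (-0.81). SNAI1, the snail factor of the streak itself, averaged 42.0 ± 4.66 and 43.7 ± 4.24 TPM (-0.02). N-cadherin CDH2 and vimentin VIM had 0.26 and 0.30. The median of the list was 0.30. With a pseudocount of 5 the list had 3 higher and 1 lower gene.

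The streak factors TBXT, EOMES and MIXL1 differed by less than the fold threshold. Of the 17 genes in the streak and mesendoderm list 16 were tested, 3 were higher (the ligand gene NODAL and the factors FOXA2 and FOXH1) and none was lower, where 2.76% of all genes were called higher. The median log2 fold change was 0.03. TBXT differed by 0.40 ± 0.05, EOMES by 0.20 ± 0.05 and MIXL1 by 0.11 ± 0.07 on the log2 scale. GSC, a homeobox factor of the anterior streak, had 80.7, 117, 135 and 91.6 TPM in high purity and 118, 106, 111 and 112 TPM in low purity wells (-0.07, limma adjusted p = 0.742), with overlapping classes. TBXT and EOMES passed the adjusted p without the fold, and the 4 high purity wells were above the 4 low ones in both. MESP1, the cardiac mesoderm regulator, was still at 4.07 ± 0.920 and 6.02 ± 1.23 TPM, and TBX6, of presomitic mesoderm, at 36.3 ± 2.82 and 50.8 ± 4.65 TPM. CER1, a secreted antagonist of NODAL and BMP made by anterior endoderm, was lower in high purity wells, at 254, 234, 233 and 261 TPM against 445, 398, 414 and 461 TPM, but its log2 fold change of -0.77 ± 0.05 did not reach 1.

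**Figure D4:**
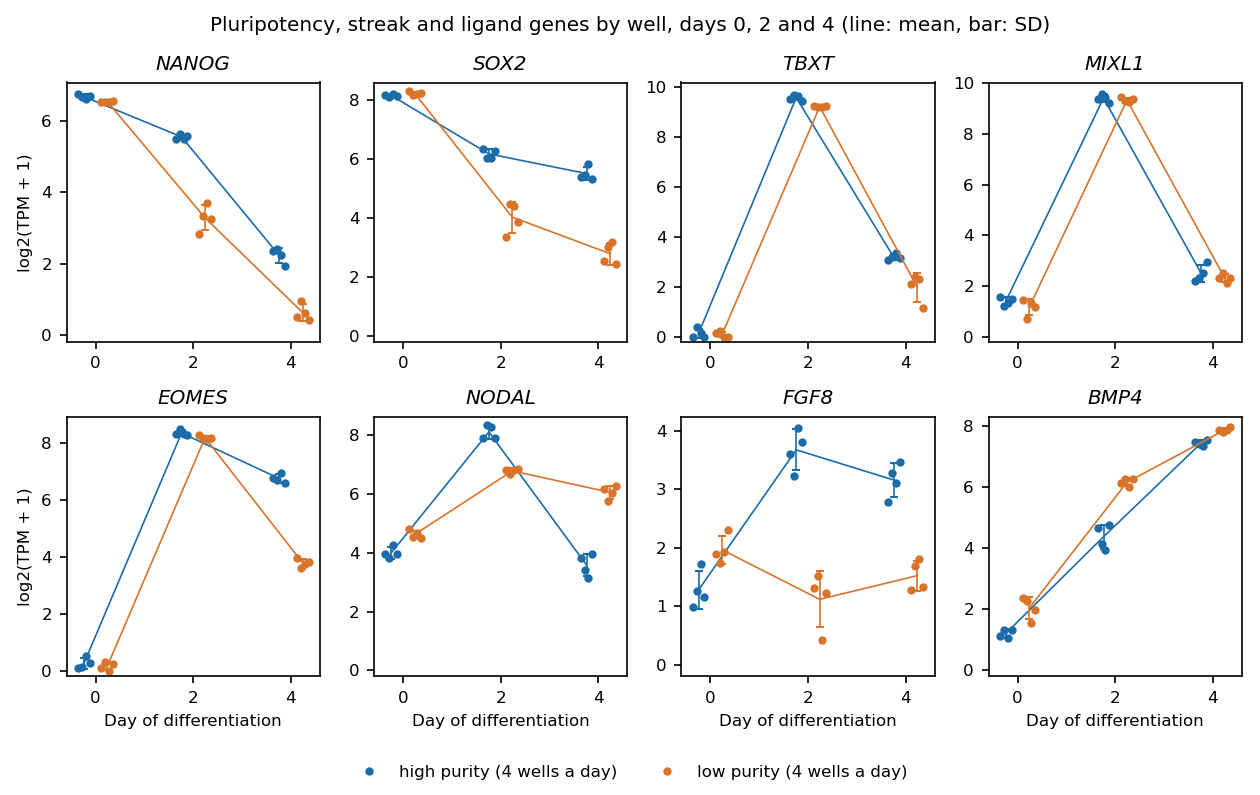
Expression as log2(TPM + 1) of pluripotency factors (NANOG, SOX2), streak factors (TBXT, MIXL1, EOMES) and ligands (NODAL, FGF8, BMP4) in single wells (points) on days 0, 2 and 4, with the mean (line) and SD (bar) of 4 wells per class. TBXT, MIXL1 and EOMES nearly coincide on day 2, NANOG, SOX2, NODAL and FGF8 are higher in high purity wells and BMP4 is higher in low purity wells.

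Genes of the NODAL pathway included 2 of the 3. NODAL, the TGF-beta family ligand that specifies mesendoderm, had 238, 327, 308 and 239 TPM in high purity and 112, 101, 111 and 114 TPM in low purity wells (1.36 ± 0.10, limma adjusted p = 3.31e-05). Wells 2 and 3 of the high purity class were the highest, and no low purity well came above 114 TPM. On day 0 the order was the reverse, 15.1 ± 2.25 TPM in high purity and 23.7 ± 2.35 TPM in low purity wells, and the difference in change was 2.06 ± 0.15 (limma adjusted p, 5.95e-07). In the NODAL pathway list 2 of 20 tested genes were higher and none lower, where 2.76% of all genes were called higher. The 2 were NODAL and FOXH1, the DNA-binding partner of SMAD2. FOXH1 averaged 97.8 ± 14.2 and 49.0 ± 3.15 TPM (1.01 ± 0.09) and sat at the fold threshold. Its log2 fold change was 0.92 without high purity well 2, 0.98 without low purity well 1, 0.99 without well 2 and 0.99 without well 4, so it was then not called. LEFTY1, a NODAL-induced antagonist of NODAL, averaged 16.4 ± 6.29 and 8.08 ± 1.90 TPM and fell just short (0.93 ± 0.26). It passed the fold without high purity well 1 (1.09) or 4 (1.06) or low purity well 1 (1.02). The receptors ACVR1B and ACVR2B had 0.50 and -0.14.

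Of 23 tested genes of the FGF list 4 were higher in high purity wells, all ligand genes, and none was lower, where 2.76% of all genes were called higher. FGF8, which streak cells need to migrate away, had 11.1, 8.42, 15.7 and 13.1 TPM against 1.47, 1.85, 0.341 and 1.35 TPM (2.58 ± 0.27, limma adjusted p = 0.000127). It stood on few reads in the low purity wells, 1 to 5 per well. FGF4, made by epiblast and streak, had 112, 162, 144 and 115 TPM against 36.9, 35.8, 37.6 and 40.4 TPM (1.81 ± 0.11). FGF19 and FGF18 averaged 20.4 ± 1.5 and 4.77 ± 0.762 TPM in high purity and 6.38 ± 0.601 and 0.973 ± 0.453 TPM in low purity wells. The receptor FGFR1 (-0.08) and the feedback genes DUSP6 (-0.19), SPRY4 (-0.34) and ETV4 (0.06), which FGF signalling induces, did not reach the fold threshold in either direction.

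The ligand genes BMP4 and BMP2 were lower in high purity wells. BMP4, which patterns posterior streak and lateral mesoderm, had 24.1, 16.6, 14.5 and 26.1 TPM in high purity and 68.7, 75.8, 62.6 and 75.4 TPM in low purity wells (-1.75 ± 0.18, limma adjusted p = 0.000109). BMP2 had 43.7, 26.0, 32.1 and 44.9 TPM against 93.4, 87.3, 84.8 and 99.3 TPM (-1.29 ± 0.17). No well overlapped the other class, and high purity wells 2 and 3 were the lowest in both genes. In the BMP list these 2 of 21 tested genes were lower (4.22% of all genes), while the ligand genes BMP5 (-0.22) and BMP7 (0.58) were not called. The 1 higher gene was ID2, an inhibitor of basic helix-loop-helix factors. ID2 had 118, 110.4, 104 and 121 TPM against 22.4, 35.4, 38.2 and 28.4 TPM (1.89 ± 0.16). Other BMP-induced genes were not called, with 0.44 for ID1, 0.05 for ID3 and -0.95 for MSX1. The list's median was -0.22.

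Of 28 tested WNT feedback and target genes, 1 was higher and 1 lower, a share near the 6.97% of all genes called, and the median was 0.07. AXIN2, the standard feedback target, had 144, 134, 126 and 135 TPM in high purity and 128, 129, 127 and 134 TPM in low purity wells (0.09 ± 0.04, limma adjusted p = 0.0988), with overlapping classes. SP5 (0.50 ± 0.05) and DKK1 (0.30 ± 0.03) were higher in all 4 high purity wells by less than the fold threshold, and LEF1 had -0.18 ± 0.08. The gene higher by the rule was TCF7L1, a TCF repressor active in pluripotent cells (1.35 ± 0.11), and the gene lower was LGR5, a receptor for R-spondins (-1.17 ± 0.17). Of 10 tested WNT ligand genes 1 was called in each direction, where 2.76% of all genes were called higher and 4.22% lower. WNT5B had 105, 116, 106 and 104 TPM against 45.4, 45.3, 41.7 and 49.4 TPM (1.26 ± 0.05), and WNT5A, a ligand of non-canonical signalling, had 65.2, 42.9, 37.1 and 62.2 TPM against 138, 129.6, 122 and 139 TPM (-1.34 ± 0.17). WNT3A, the canonical ligand of the streak, averaged 11.1 ± 1.90 and 6.15 ± 0.892 TPM (0.78 ± 0.13).

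Markers of the derivatives of the streak were mixed. KDR, the VEGF receptor of early lateral mesoderm, had 193, 226, 208 and 204 TPM in high purity and 59.9, 75.5, 81.2 and 64.8 TPM in low purity wells (1.59 ± 0.10, limma adjusted p = 1.62e-05), the 1 higher gene among 17 tested of the lateral and cardiac mesoderm list. The 1 lower gene of that list was SNAI2, where 2.76% of all genes were called higher and 4.22% lower. The companion receptor of KDR, PDGFRA, averaged 33.5 ± 3.48 and 40.9 ± 2.36 TPM (-0.25 ± 0.08), and GATA6, HAND1 and FOXC1 had 0.14, -0.34 and -0.48. That list's median was -0.34, with 13 of 17 genes negative. Of 10 tested endoderm genes 3 were higher and none lower (2.76% of all genes were called higher), but 5 of the 10 had a negative value and the list's summed level was 457 to 497 TPM in high purity wells against 541 to 605 TPM in the low. FOXA2, a pioneer factor of anterior streak and endoderm, had 79.8, 121, 126 and 66.7 TPM against 38.8, 42.7, 45.8 and 40.2 TPM (1.20 ± 0.19), highest in high purity wells 2 and 3. The receptor KIT had 29.9, 44.4, 41.0 and 33.7 TPM against 8.76, 10.5, 9.95 and 9.29 TPM (1.87 ± 0.13) and the homeobox gene HHEX averaged 28.3 ± 5.46 and 9.98 ± 1.86 TPM (1.44 ± 0.17). SOX17, the defining endoderm factor, was low and in the other order, 4.07 ± 1.21 and 7.81 ± 1.84 TPM (-0.78 ± 0.20).

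Posterior genes gave both directions. In the HOX and CDX list 12 genes were tested, 3 were lower in high purity wells, HOXB4 and HOXB3 among them, and 1, CDX4, was higher, against 4.22% and 2.76% of all genes, with a median of -0.64. HOXB4 had 7.35, 2.40, 3.35 and 8.57 TPM in high purity and 27.0, 24.4, 15.7 and 29.3 TPM in low purity wells (-2.03 ± 0.35, limma adjusted p = 0.00167). HOXB3 averaged 3.34 ± 0.749 and 9.52 ± 1.22 TPM (-1.26 ± 0.15). Over all alternatives the list had 1 to 5 lower genes, and it had 2 without high purity well 2 or 3 or low purity well 1 or 4. CDX4, a caudal factor upstream of HOX genes, had 13.8, 14.7, 13.4 and 12.2 TPM against 4.30, 1.92, 2.66 and 4.84 TPM (1.79 ± 0.20), while CDX2 was not called (0.08). NKX1-2, a gene of the caudal epiblast, had 43.4, 24.5, 22.2 and 53.4 TPM against 10.1, 20.6, 14.5 and 8.78 TPM (1.36 ± 0.34), with high purity wells 1 and 4 the highest.

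Several of the largest protein-coding falls belong to no list. C11orf87 had 5.60, 3.16, 2.90 and 4.67 TPM in high purity and 43.0, 32.2, 36.3 and 43.1 TPM in low purity wells (-2.96 ± 0.18, limma adjusted p = 1.35e-05). DEFA6, a defensin gene, had 18.98, 16.7, 14.9 and 27.7 TPM against 112, 78.6, 97.7 and 106 TPM (-2.27 ± 0.18), and the neurotensin gene NTS had 213, 123, 127 and 224 TPM against 599, 565, 528 and 644 TPM (-1.78 ± 0.20). On day 0 these 3 genes were at 0.397, 0 and 17.3 TPM in high purity and 0.421, 0 and 11.7 TPM in low purity wells, below the day 2 values of both classes. ARRDC4 and TXNIP are related alpha-arrestin genes that restrain glucose uptake, and both were lower in high purity wells. ARRDC4 had 5.29, 4.27, 3.40 and 6.79 TPM against 19.1, 19.7, 20.5 and 19.3 TPM (-1.80 ± 0.16) and TXNIP had 13.1, 9.19, 9.87 and 19.6 TPM against 38.9, 43.2, 47.5 and 48.2 TPM (-1.73 ± 0.21). Their changes from day 0 differed by -2.17 ± 0.21 and -2.15 ± 0.25 (limma adjusted p = 5.59e-06 and 2.63e-05). NDUFS5, an accessory subunit of respiratory complex I, had 49.98, 28.5, 40.8 and 50.1 TPM against 153, 196, 222 and 192 TPM (-2.13 ± 0.19). The other members of the 12 largest falls were IZUMO1R, LIX1, CPLX2, ACTA1, CRTAM, HOXB4 and BMP4. ACTA1, the skeletal muscle actin gene, had 5.12, 4.29, 3.04 and 5.88 TPM against 21.1, 17.6, 17.0 and 18.9 TPM (-1.81 ± 0.16) and was already lower on day 0, 1.86 ± 0.596 against 8.23 ± 2.74 TPM.

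Genes of metabolism and proliferation shifted in part. In the cholesterol list 4 of 24 tested genes were lower and 1 was higher, against 4.22% and 2.76% of all genes, with a median of -0.31. IDI1, of isoprenoid synthesis, had 13.0, 12.1, 11.9 and 14.4 TPM in the high purity class and 28.0, 28.0, 31.1 and 29.5 TPM in the low (-1.09 ± 0.08, limma adjusted p = 2.18e-05), with no overlap of wells. The list had 2 lower genes without high purity well 2 and 1 with a pseudocount of 5. On day 0, 22 of these 24 genes had all high above all low purity wells, against 21.7% of all genes. Against the same shares, in the cell cycle list 3 of 29 tested genes were lower (CDK6, CCNE1 and CCNE2, of entry into S phase) and CCND2 was higher (305, 313, 288 and 308 TPM against 140.1, 147, 153 and 149 TPM, 1.07 ± 0.04). CDK6 had 15.4, 10.1, 9.41 and 15.4 TPM against 35.6, 29.8, 31.2 and 37.3 TPM (-1.34 ± 0.16), and its call held in every alternative. CCNE1 had -1.09 ± 0.18 and was not called without high purity well 2 (-0.97) or 3 (-0.98). The mitotic genes CCNB1 and TOP2A had 0.17 and 0.28. None of 20 tested p53 target genes was called by limma, although 13.0 had an unadjusted p under 0.05 without regard to the fold, and 1 was called lower by edgeR, by DESeq2, and by limma with only protein-coding TPM, with a pseudocount of 0.1, or without high purity well 1 or 4 or low purity well 2. CDKN1A, the p21 gene, had 0.22. Of 26 tested genes of the ATF4 amino acid stress list, 3 were higher, STC2, VLDLR and CTH, where 2.76% of all genes were called higher. ATF4 itself had 0.35. CTH (1.06 ± 0.09) was not called without low purity well 1 (0.99). In the Notch list HES1 was the 1 called gene of 14, near the 6.97% of all genes called. HES1 was higher at 152 ± 24.5 against 59.9 ± 4.85 TPM.

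**Figure D5:**
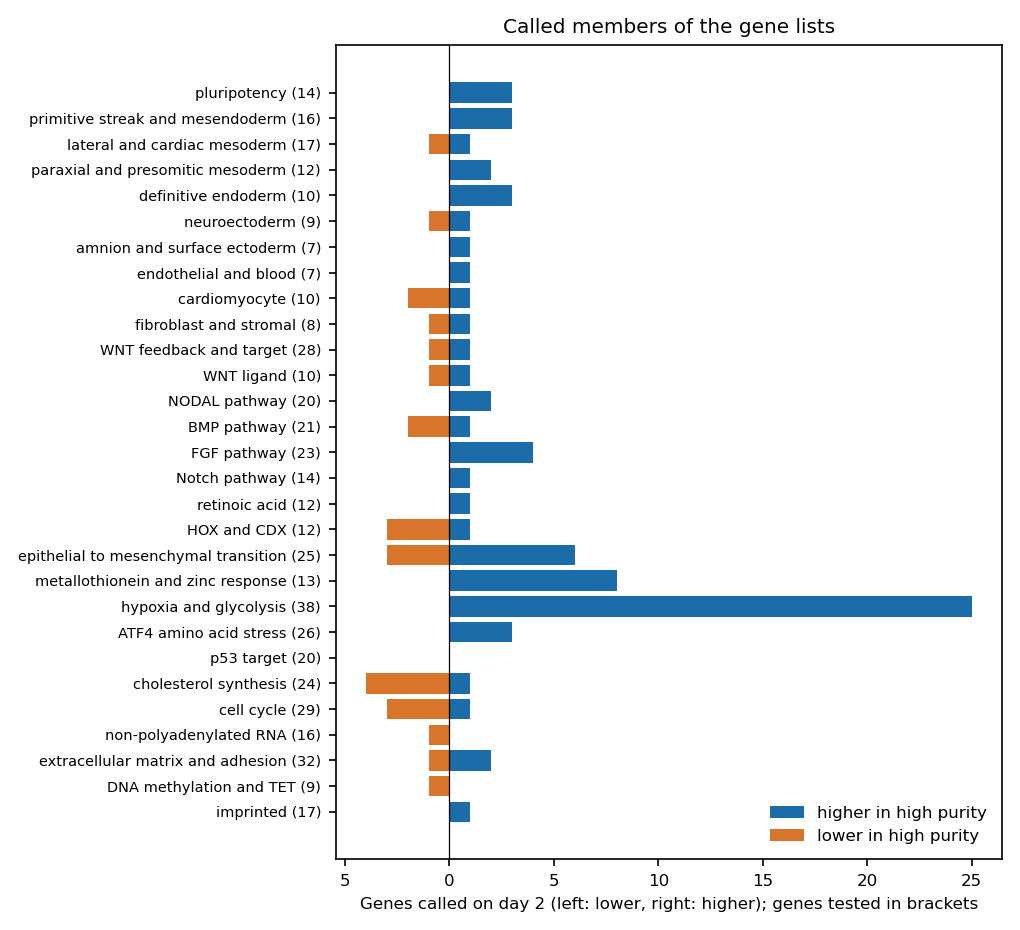
Number of called genes in each gene list on day 2, higher in high purity wells to the right and lower to the left, with the number tested in brackets. The hypoxia and glycolysis list has 25 higher genes of 38 and the metallothionein list 8 of 13, while the WNT target, p53 and streak lists have 0 to 3 in a direction.

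Markers of other cell types were read in the same wells. Their counts stand beside 2.76% of all genes called higher and 4.22% called lower. Of 18 cardiomyocyte genes 10 were tested, TNNI3 was higher (73.3 ± 14.1 against 26.7 ± 4.56 TPM), MYL7 (0.581 ± 0.420 against 2.74 ± 0.830 TPM) and TTN (14.7 ± 1.12 against 33.5 ± 2.19 TPM) were lower, and the summed level was 115 to 149 TPM in high purity and 98.1 to 109 TPM in low purity wells. MYL2 was at 0 in all wells. Of 15 neuroectoderm genes 9 were tested, with POU3F1 higher and NCAM1 lower and a summed level of 945 to 1035 against 770.1 to 810 TPM, while PAX6 was at 0 in all wells. NCAM1 had -1.13 ± 0.21 and was not called without high purity well 3 (-0.99). The amnion list had 1 call among 7 tested genes, TFAP2C, with a summed level of 270.3 to 319 against 277 to 291 TPM, and GATA3 and VTCN1 were near 0. Among endothelial and blood genes, 7 of 15 were tested and KDR alone was called, with a summed level of 215 to 244 against 84.3 to 106 TPM and CDH5 at 0 in all wells. The fibroblast list had PDGFRB higher and TAGLN lower among 8 tested, with a summed level of 219 to 231 against 253 to 273 TPM, and DCN and LUM near 0. These are bulk wells, so a smaller number of cells of a type and less RNA per cell cannot be told apart.

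Non-coding entries had the largest negative fold changes. RNR1, which RefSeq places on the mitochondrial genome as a ribosomal RNA gene, had 24.4, 6.44, 8.28 and 14.99 TPM in high purity and 1025, 1224, 1916 and 729 TPM in low purity wells (-6.44 ± 0.42, limma adjusted p = 1.7e-05), although RNR2 of the same transcription unit differed by -0.44 only. The histidine transfer RNA genes TRH-GTG1-7 and TRH-GTG1-8 had 24.5, 11.1, 0 and 17.0 TPM against 324, 388, 442 and 292 TPM and 0, 11.1, 0 and 0 TPM against 39.8, 85.5, 163 and 62.6 TPM. TRH-GTG1-8 rested on 3 reads in high and 65 in low purity wells, a depth-adjusted ratio of 37.4 (95% exact binomial interval 12.2 to 186). Such RNAs lack a poly(A) tail or carry a short one and have near-identical copies in the genome, so their counts in a poly(A) library are uncertain. The summed level of the non-polyadenylated list was 210300 to 231900 TPM in high purity and 258800 to 284200 TPM in low purity wells.

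Day 2 differences were set against the neighbouring days in the same differentiations. Of the 529 genes higher on day 2, 220 (41.6%) had all 4 high above all 4 low purity wells on day 0 already, where 21.7% of all genes tested did, and 9 had the reverse order. Of the 810 lower genes, 187 (23.1%) had all low above all high purity wells on day 0, where 5.97% of all genes did. On day 4 the same order held for 257 (48.6%) of the higher genes, beside 19.1% of all genes, and for 212 (26.2%) of the lower genes, beside 17.3%. The test of the change from day 0 called 404 genes with a larger and 434 with a smaller change in high purity wells, or 323 and 556 without scaling of the libraries. Of the 404, 266 were also called higher on day 2, where 2.76% of all genes tested on that day were. Of the 434, 285 were also called lower, where 4.22% were. The test of the change contains the same day 2 wells, so this overlap is partly built in and is no separate support. The largest such changes upward among protein-coding genes of at least 10 TPM were those of MT1H, MT1G, MT1X, MT1F and MT2A, and the largest downward were those of C11orf87, DEFA6, NTS, ARRDC4 and TXNIP. The days use different wells of the same 2 classes. Ligand genes show the course: BMP4 averaged 173 ± 11.7 and 233 ± 10.7 TPM on day 4 in high and low purity wells, FGF8 8.08 ± 1.80 and 1.91 ± 0.522 TPM, and NODAL 11.3 ± 3.09 and 66.0 ± 9.68 TPM, so the order of NODAL on day 4 was the reverse of that on day 2.

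The RNA-only experiment gives 1 high and 1 low purity library per line on day 2 (WTC11) or day 3 (H9, an embryonic stem cell line, and IMR90-4, an induced pluripotent line), made with a total RNA kit and without replicates, and its values are a description with no test. Its WTC11 high purity differentiation was at passage 81 and its low purity one at passage 69. High was above low in all 3 lines for 71 (13.4%) of the 529 genes higher in the day 2 wells, where 19.7% of all genes tested had that order. Low was above high in all 3 lines for 69 (8.52%) of the 810 lower genes, where 10.8% of all genes did. Both shares were below those of all genes. In the WTC11 libraries alone, 46.7% of the higher genes and 67.4% of the lower genes had high above low, against 57.1% of all genes. In IMR90-4 the shares were 38.6% and 48.9%, against 57.4%. In H9 they ran with the day 2 wells, at 58.8% of the higher and 38.3% of the lower genes, against 49.1%. 

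Among single genes, MT1X was at 33.6 TPM in the high and 525 in the low purity library of WTC11, 20.3 TPM in the high and 9.20 in the low purity library of H9 and 10.6 TPM in the high and 9.93 in the low purity library of IMR90-4. The WTC11 libraries had the reverse order of the day 2 wells. NANOG was at 20.3 TPM in the high and 64.0 in the low purity library of WTC11, also reversed, and SOX2 at 19.9 TPM in the high and 99.5 in the low purity library. BNIP3 was at 593 TPM in the high and 571 in the low purity library of WTC11 and 225 TPM in the high and 124.2 in the low purity library of H9, and ADM at 18.8 TPM in the high and 69.6 in the low purity library of WTC11. Of the 38 tested hypoxia genes, 5 had high above low in all 3 lines and 9 had low above high, where 19.7% and 10.8% of all genes did. The streak list differed from this, with 12 of its 16 tested genes higher in the high purity library of all 3 lines and none lower in all 3, against the same shares. TBXT was at 212 TPM in the high and 101 in the low purity library of WTC11. For NANOG, SOX2, ADM and TBXT only the WTC11 libraries are given here, and for BNIP3 the IMR90-4 libraries are left out. The values of these genes therefore state no order over the 3 lines. BMP4 was at 13.8 TPM in the high and 4.75 in the low purity library of WTC11, 105 TPM in the high and 90.8 in the low purity library of H9 and 41.3 TPM in the high and 19.8 in the low purity library of IMR90-4, each in the reverse order of the day 2 wells.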

How the data were processed

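RNA was measured by poly(A) sequencing in the WTC11 wells (a stranded mRNA kit) and by a stranded total RNA kit in the RNA-only libraries, per the labels' protocols. Per the submitters' processing notes the reads were handled with STAR 2.5.3a and featureCounts 2.0.3 on hg38. The authors deposited TPM (transcript level scaled for gene length and library size) for each gene and sample, and how TPM was computed from the counts is not given in the sources used here. The authors also deposited a count table, per the file headers with the same column names, but for 0 of the 56 columns of the WTC11 time course did its counts match the TPM column of that name, while 50 matched a column of another name. The names in the TPM table were followed, and which of the tables carries the right names was not tested. Reads were instead recovered from the TPM through gene lengths solved from the RNA-only tables, whole to within 0.02 reads plus a term for rounding in 37194 of 43388 genes. Recovered reads served for depth, for counting intervals and for the count-based alternatives.

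Genes with at least 1 TPM in 3 of the 8 wells were kept. Values were TMM-scaled (edgeR 4.0.16), taken as log2(TPM + 1) and fitted with limma 3.58.1 (trend) in R 4.3.3, which was tested on simulated data, with Benjamini-Hochberg adjustment over all genes. The change from day 0 was tested as an interaction over 16 wells in the same way. Exact permutation tests used scipy 1.17.1 and were two-sided. Alternatives were other scalings, pseudocounts and filters, a fit of all 56 wells, edgeR and DESeq2 1.42.0 on recovered reads, a replicate block and leaving out each well. The limit of more than 10 reads in a well was added after the data were seen. Intervals on read ratios are 95% exact binomial and cover counting error only.

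RefSeq gene types, positions and promoters (GRCh38.p14) were matched by symbol to 36114 of 43388 entries. Genes named are, among those called without overlap of wells and at 10 TPM or more, the 12 largest protein-coding and 3 largest other changes each way, up to 4 called genes per list, a set of patterning genes, and the 5 largest changes from day 0 each way. Of the 3 other genes with the largest rises (SNORD113-4, RNU1-2 and SNORD32A), all lost their call when 1 well was left out. Other list members were named after their values were seen. Lists and comparisons were chosen with earlier results of these data known, so the counts are no independent support for a pattern.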

Additional observations from a re-analysis of the deposited data

Results flagged for a closer look

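In 4 of 121 groups of 4 wells, 1 well stood far from the other 3 by Dixon's test, where chance flags about 1 group in 20. MT1E and MT2A were both at 0 TPM in low purity well 4, while the other low purity wells had 0.882 to 0.956 TPM for MT1E and 1.89 to 2.05 TPM for MT2A. MT1F was at 1.69 TPM in low purity well 1 and at 0 in the others, a value made of 2 reads. TRH-GTG1-8 was at 11.1 TPM in high purity well 2, from 3 reads, and at 0 in the other high purity wells.

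The change from day 0 to day 2 differed between the classes for 838 of 20685 genes by the limma test of that difference. The difference in change on the log2 scale was 5.86 for MT1H, 4.93 for MT1G, 4.54 for MT1X, 4.52 for MT1F and 4.36 for MT2A, each larger in the high purity class. It was -2.91 for C11orf87, -2.27 for DEFA6, -2.23 for NTS, -2.17 for ARRDC4 and -2.15 for TXNIP. With 1 passage behind each class, these differences cannot be told apart from differences between 2 differentiation runs.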

How the results depend on the processing

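The number of genes called on day 2 (1339) was 760 with only protein-coding TPM, 2157 with a pseudocount of 0.1, 416 with a pseudocount of 5, 803 with at least 5 TPM in 4 wells, 2279 with edgeR and 2158 with DESeq2 on recovered reads, and 8818 by adjusted p alone. The number with a different change from day 0 (838) was 273 with a pseudocount of 5, 541 with at least 5 TPM in 4 wells and 5221 by adjusted p alone. Leaving out 1 well gave 1175 to 1428 and 735 to 899 genes. With the replicate block the counts were 1328 and 822. Wells of the same number correlated at -0.014 to 0.043 across the classes, and 2 of 4 wells correlated best with their own number. With 4 wells per class this cannot settle whether wells of the same number share more than the number. The main fit used no pairing. The limit of more than 10 reads in a well, chosen after seeing the data, left 1104 and 739 genes.

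Of 2013 values of 107 named genes under the alternatives, 1942 kept direction and call, 65 lost and 6 gained the call and 0 were reversed. The pseudocount of 5 ended 18 of these calls. The cause of these changes was not tested. Of the 107 named genes, called or not, 85 kept their call status and direction under all alternatives. Depth was 9964769 to 14718686 reads in high and 6841508 to 7732058 in low purity wells, so genes of few reads, many of them non-coding, are the least certain.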

Other observations

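Adhesion genes were mixed on day 2. Of 32 tested genes of the extracellular matrix and adhesion list 2 were higher and 1 lower, near the 6.97% of all genes called. The median log2 fold change was -0.07. PCDH10, a protocadherin gene, had 82.2, 109, 106 and 84.2 TPM in wells 1 to 4 of the high purity class and 32.4, 33.1, 34.9 and 33.4 TPM in those of the low (1.5 ± 0.09, limma adjusted p = 1.52e-05). HAPLN1, which encodes a link protein of hyaluronan matrix, had 2.05, 0.723, 0.725 and 2.25 TPM against 9.72, 11.2, 9.003 and 7.12 TPM (-2.10 ± 0.26). High and low purity wells were fully apart in both genes. VLDLR, a lipoprotein and reelin receptor gene, had 23.0, 23.6, 23.4 and 21.7 TPM against 5.89, 6.32, 6.49 and 5.79 TPM (1.78 ± 0.07).

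The lists of retinoic acid, imprinted and DNA methylation genes had 1 call each, of 12, 17 and 9 tested, near the 6.97% of all genes called. DHRS3, a retinal reductase gene, had 1.07 ± 0.21 and was not called without high purity well 3 (0.94) or low purity well 2 (0.99). The imprinted MEG3 had 1.01 ± 0.11 and UHRF1, a partner of the maintenance methyltransferase, had -1.00 ± 0.14, and each lost its call when any of several single wells was left out. MEG3 was then at 0.96 to 1.00 and UHRF1 at -0.98 to -0.90. The 26 symbols of the mitochondrially encoded list matched no entry of the deposited table, which does hold the mitochondrial RNR1 and RNR2, so that list was not analysed here.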
